A study of Mus musculus with 10 samples.

Results

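Cerebellins can form a complex with delta glutamate receptors and neurexins that bridges the synaptic cleft. RNA of cerebellins, the delta receptor Grid1 and the neurexins Nrxn2 and Nrxn3 was followed here in the newborn mouse cochlea. The 7 genes Cbln1, Cbln2, Cbln3, Cbln4, Grid1, Nrxn2 and Nrxn3 were taken by symbol from a table of 54532 genes, and all 7 were among the 17937 genes with enough counts to test. Cbln1 was chosen by its measured fall between the genotypes in these same libraries, so its difference is given as a description and supports nothing further. The other 6 genes were added as members of the same complex or as relatives of its members. RNA came from the cochlear soft tissue of female mice on postnatal day 1, with both ears of an animal pooled into 1 library. The 5 control animals were Esrrgfl/fl, homozygous for a loxP-flanked Esrrg allele, and the 5 conditional knockout (cKO) animals were Esrrgfl/fl;Sox10-Cre, so that all 10 carried the floxed allele. Esrrg encodes the nuclear receptor estrogen-related receptor gamma. Sox10-Cre expresses the recombinase in cells that use Sox10 regulatory sequence, which in the ear include the otic epithelium, glia and melanocytes. The controls carry no Cre, so an effect of the transgene and one of the deletion cannot be told apart.

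Cerebellins are secreted proteins of the C1q family. On one side Cbln1 and Cbln2 bind presynaptic neurexins, and on the other side the amino-terminal domains of postsynaptic delta glutamate receptors such as GluD1 (Grid1). The same bridge is not claimed here for Cbln3 alone or for Cbln4. Cbln1 is best known from the cerebellum, where granule cells release it and it holds parallel fibre synapses onto Purkinje cells. Cbln2 and Cbln4 are used by other neurons, Cbln3 is secreted together with Cbln1, and GluD1 is a receptor known from the inner ear and forebrain. Neurexins also bind neuroligins, leucine-rich repeat transmembrane proteins (LRRTMs) and other ligands.

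Because the members include near relatives, their coding sequences were compared first, to show how far reads of one gene could be taken for another. The stretch of Cbln1 around its longest exact match to Cbln3 is shown with the aligned stretches of Cbln3 and Cbln4, each 63 coding bases, 5′ to 3′, with capitals where a base differs from Cbln1.
Cbln1: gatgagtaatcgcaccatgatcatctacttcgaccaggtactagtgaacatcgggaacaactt
Cbln3: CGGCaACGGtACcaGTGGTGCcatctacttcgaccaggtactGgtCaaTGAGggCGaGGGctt
Cbln4: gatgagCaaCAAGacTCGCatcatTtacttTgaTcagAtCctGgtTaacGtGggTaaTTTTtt
The stretches lie on the minus strand of GRCm38, each split by an intron, at chromosome 8, 87471786 to 87472013 (Cbln1), chromosome 14, 55883561 to 55883948 (Cbln3) and chromosome 2, 172039065 to 172042053 (Cbln4). In this window Cbln3 differed from Cbln1 at 28 of 63 bases and Cbln4 at 23. Over whole annotated transcripts the longest exact run between any cerebellin pair was 21 bases, for Cbln1 with Cbln3 and for Cbln2 with Cbln4. It was 18 bases for Cbln1 with Cbln2 and 14 for Cbln1 with Cbln4. The neurexin pair shared at most 23 bases, shown because it is the longest run among the pairs compared: agcaacaacttcatgggctgcct. All of these runs are far shorter than the sequenced reads.

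The libraries held 33.5 to 41.8 M counts. Control 2 stood apart from the other controls on the first principal component of the 500 most variable genes, at -29.0 against -4.11 to 5.70. Likewise cKO 5 stood apart from the other libraries labelled cKO, at 17.9 against -0.690 to 1.77. For the members and the lists, leaving out either library is named below where it changes a count of calls, turns the sign of a printed value or moves a member's fold change by over 1.5 times. Counts of unadjusted p under 0.05 are not calls, and their changes are given for some lists only. In other lists they moved too, as for the hair cell genes, from 1 to 0 without either library. Esrrg was higher in the libraries labelled cKO, at 89.8 ± 15.2 CPM against 58.4 ± 6.34 CPM in controls (SD, n = 5 each). CPM are counts relative to the TMM-scaled library total. The log2 fold change of Esrrg was 0.62 (edgeR adjusted p = 0.0259), against the direction that a loss of its RNA would give. The counts cover all exons and do not show whether an exon was removed, and each direction below rests on the label. In the fit across all genes, 98 genes (0.546% of those tested) were called lower and 13 (0.0725%) higher at an edgeR adjusted p under 0.05, together 0.619%. Without control 2 there were 178 lower and 19 higher calls, and without cKO 5 there were 47 and 8. Over the same 17937 genes DESeq2 called 253 lower and 54 higher, and limma-voom with quality weights 295 and 53. Calls by these tools in the lists below stand beside these larger totals, not beside those of edgeR. Of the 7 members 1 was called lower, Cbln1, whose fall chose it, and 0 higher. Over all tested genes the log2 fold changes had a median of -0.007.

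Levels are compared between genes in FPKM, the deposited value per gene length. In controls Nrxn2, at 7.77 ± 0.551 FPKM, was the highest of the 7 genes, followed by Grid1 at 3.71 ± 0.640 FPKM (SD, n = 5). The range of each did not overlap that of the next gene in the order. Below them came Cbln4 at 1.47 ± 0.208, Cbln1 at 1.18 ± 0.227, Nrxn3 at 0.994 ± 0.191, Cbln2 at 0.801 ± 0.184 and Cbln3 at 0.577 ± 0.0949 FPKM. Each neighbouring pair among these 5 had overlapping ranges over libraries. In the libraries labelled cKO the order was the same except that Cbln1 moved from rank 4 to rank 6. It stood there at 0.637 ± 0.108 FPKM, between Cbln2 at 0.804 ± 0.131 and Cbln3 at 0.606 ± 0.102 FPKM, and overlapped both in range. The cerebellin RNAs thus lay below Grid1 and Nrxn2 in both genotypes, per length. The last rank of Cbln3 depends on that length, which is 4866 annotated exon bases for Cbln3 and 2894 for Cbln2. In CPM, which is not per length, the mean of Cbln3 was above that of Cbln2, at 2.83 against 2.34 in controls. Under the cKO label it was 2.97 CPM, against 2.34 for Cbln2 and 1.95 for Cbln1.

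Among the ligands, Cbln1 (ENSMUSG00000031654; GRCm38 chromosome 8, 87468405 to 87472609, minus strand) was the gene whose fall chose the set. It had 155, 171, 118, 104 and 130 counts in controls 1 to 5. In cKO 1 to 5 it had 59, 53, 89, 74 and 86. Every control library lay above every library labelled cKO also after scaling, from 2.88 to 4.81 CPM against 1.52 to 2.35 CPM. The highest control value was that of control 2. The mean was 3.61 ± 0.721 CPM in controls and 1.95 ± 0.337 CPM under the cKO label (SD, n = 5 each). On the log2 scale the difference was -0.89 (SE 0.180, 95% interval -1.27 to -0.50). Without control 2 the log2 fold change was -0.774, and without cKO 5 it was -0.963 (edgeR adjusted p = 0.0674). The edgeR adjusted p by which it entered the calls was 0.0399, and it was above 0.05 in 8 of 10 fits with 1 library left out, reaching 0.114, and below it without control 2 or control 4. With so few counts, counting error alone gave a coefficient of variation of 8.59% in controls and 11.8% in the libraries labelled cKO, where 20.0% and 17.3% were observed. In bulk tissue, fewer cells of a type and less RNA per cell cannot be told apart.

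The other 3 cerebellins were not called; whether their differences depart from that of Cbln1 was not tested. Cbln2 (ENSMUSG00000024647; chromosome 18, 86711110 to 86718283, plus strand) held 126, 100, 56, 74 and 89 counts in controls 1 to 5. In cKO 1 to 5 it had 71, 64, 110, 105 and 85. The genotypes overlapped almost wholly, with 2.34 ± 0.543 and 2.34 ± 0.380 CPM and a 95% interval of the log2 fold change from -0.42 to 0.41. The fitted value, -0.000778, was 0.061 without control 2 and 0.00286 without cKO 5. An interval of that width does not show Cbln2 to be equal.

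Cbln3 (ENSMUSG00000040380; chromosome 14, 55878913 to 55884392, minus strand), the partner with which Cbln1 is secreted, ranged from 2.42 to 3.53 CPM in controls (median 2.61). It ranged from 2.32 to 3.58 CPM in the libraries labelled cKO (median 2.94). These ranges nearly coincide, and the log2 fold change was 0.07 (SE 0.169, 95% interval -0.29 to 0.43, edgeR adjusted p = 0.914). It was 0.00614 without control 2 and 0.023 without cKO 5, and -0.00971 without cKO 3. Cbln4 (ENSMUSG00000067578; chromosome 2, 172036233 to 172043466, minus strand) held 4.10, 4.69, 3.31, 4.68 and 4.78 CPM in controls 1 to 5. It held 3.84, 3.06, 3.93, 3.78 and 4.02 CPM in the libraries labelled cKO. Control 3 lay among the libraries labelled cKO and the other 4 controls above all of them. For Cbln4 the log2 fold change was -0.21 (SE 0.145, 95% interval -0.52 to 0.10, edgeR adjusted p = 0.651).

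**Figure D1:**
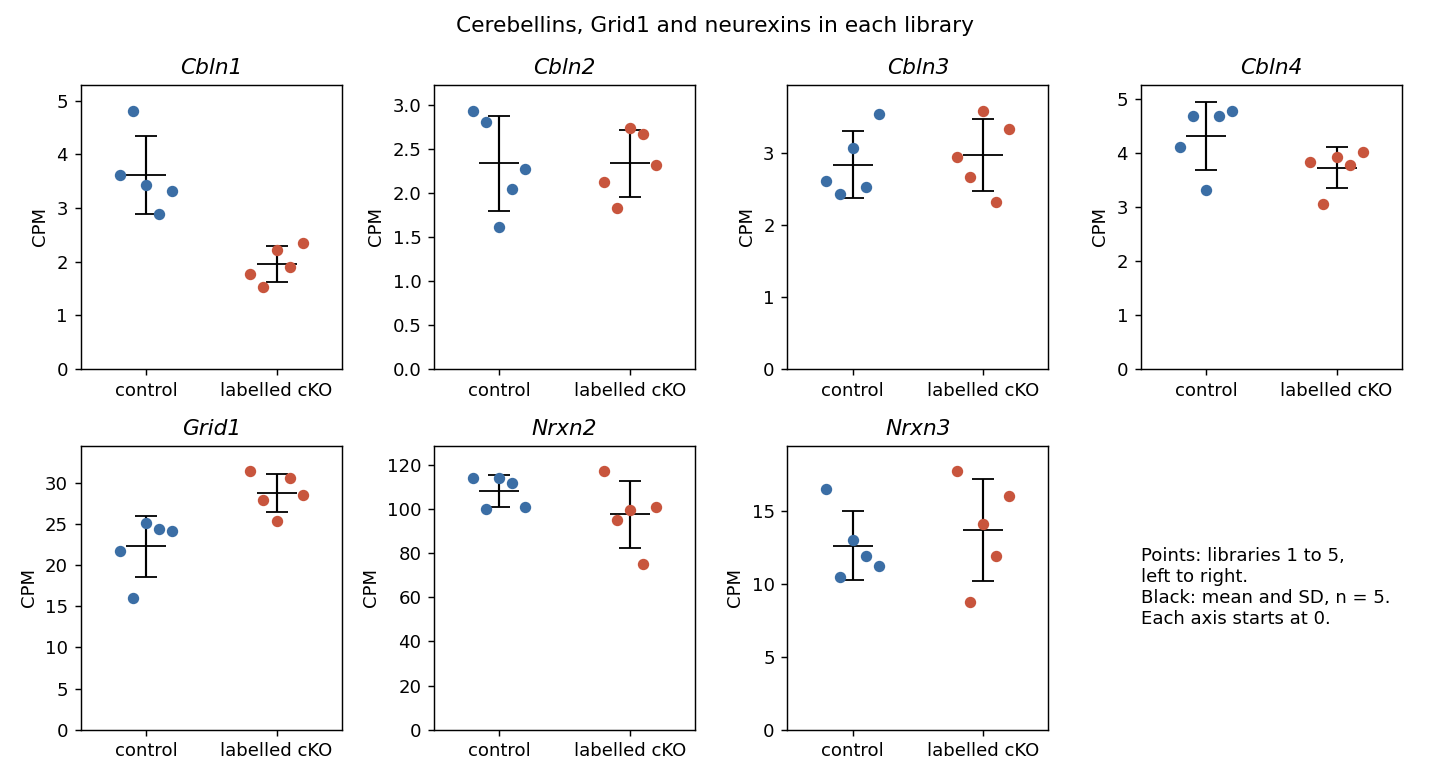
Each panel plots the CPM of a member gene in the 5 control libraries and the 5 libraries labelled cKO, with points for libraries 1 to 5 from left to right and the mean with SD in black. Cbln1 (2.88 to 4.81 against 1.52 to 2.35 CPM) and Grid1 (16.0 to 25.1 against 25.4 to 31.4 CPM) are the panels in which the genotypes do not overlap, in opposite directions.

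The make-up of the cerebellin pool is given per library, from FPKM and so per exon length. Cbln1 took 28.6, 33.9, 32.6, 25.0 and 25.7% of the summed cerebellin FPKM in controls 1 to 5. It took 18, 18.3, 19.4, 18.7 and 21.2% in the libraries labelled cKO, all of them below every control. As Cbln1 chose the set, this share is a description without a test. Cbln4 was the largest part in either genotype, at 36.6 ± 4.01% in controls and 38.5 ± 1.75% under the cKO label (SD, n = 5 each). Cbln2 went from 19.7 ± 3.09 to 24.2 ± 2.36% and Cbln3 from 14.5 ± 3.11 to 18.3 ± 2.26%. When the Cbln1 share goes down the other shares must together move up, though no single one of them must. The summed cerebellin FPKM was 4.03 ± 0.432 in controls and 3.32 ± 0.393 in the libraries labelled cKO, with ranges of 3.45 to 4.58 and 2.73 to 3.75 that overlap.

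**Figure D2:**
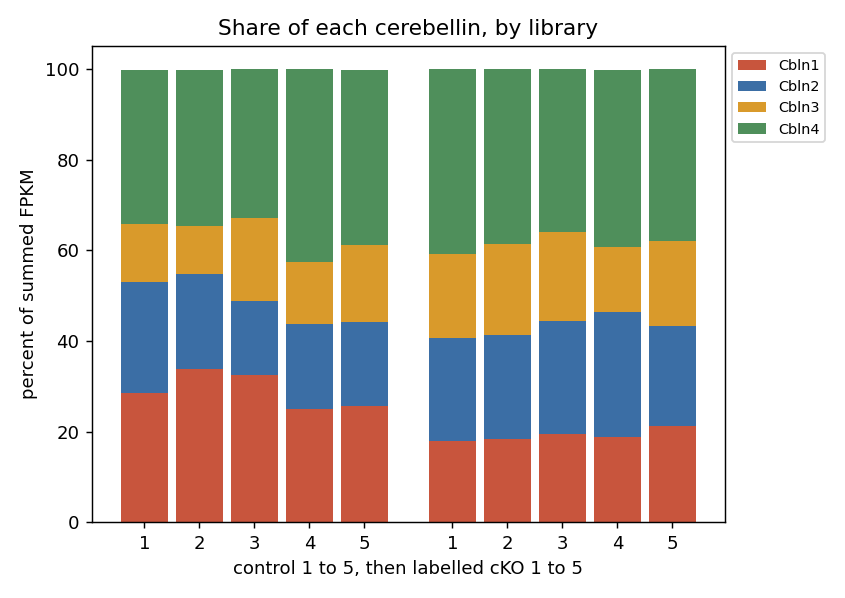
Stacked bars give the share of each cerebellin in the summed FPKM of the 4, in percent, for every library. The Cbln1 part is 25.0 to 33.9% in controls and 18 to 21.2% in the libraries labelled cKO, without overlap.

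On the receptor side, Grid1 (ENSMUSG00000041078; chromosome 14, 34820108 to 35583379, plus strand) showed values in the opposite direction. Controls 1 to 5 held 21.7, 16.0, 25.1, 24.4 and 24.2 CPM. The libraries labelled cKO held 31.4, 27.9, 25.4, 30.6 and 28.6 CPM. The genotypes did not overlap, but control 3 and cKO 3 lay side by side, and control 2 was the lowest library. Nonoverlap was seen for 2.84% of all tested genes, and among the 6 members other than Cbln1 it was seen for Grid1 alone. The log2 fold change of Grid1 was 0.37 (SE 0.119, 95% interval 0.11 to 0.63), and with an edgeR adjusted p of 0.293 over all genes it did not pass the test. Without control 2 the log2 fold change was 0.261 with an edgeR adjusted p of 0.216. Exons of Grid1 overlap those of the small gene Gm27617 on the same strand.

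Among the presynaptic receptors, Nrxn2 (ENSMUSG00000033768; chromosome 19, 6418731 to 6544169, plus strand) had the most counts of the 7 members, 2936 to 4885 per library. Controls 1 to 5 held 114, 100, 114, 112 and 101 CPM. The libraries labelled cKO held 117, 95, 99.7, 75.0 and 101 CPM, so the highest and the lowest value fell in the same group. For Nrxn2 the log2 fold change was -0.15 (SE 0.102, 95% interval -0.37 to 0.07, edgeR adjusted p = 0.649). Some Nrxn2 exons overlap those of Slc22a12 and Gm14964 on the opposite strand, and reads of such pairs cannot be told apart where the use of strand is not stated.

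Nrxn3 (ENSMUSG00000066392; chromosome 12, 88722876 to 90334935, plus strand) held 16.5, 10.5, 13.0, 11.9 and 11.2 CPM in controls 1 to 5. It held 17.7, 8.72, 14.1, 11.9 and 16.0 CPM in the libraries labelled cKO. It spread widely within both genotypes, with a coefficient of variation of 18.7% in controls and 25.6% in the libraries labelled cKO where counting error alone gave 4.57% and 4.46%. For Nrxn3 the log2 fold change was 0.12 (SE 0.177, 95% interval -0.26 to 0.50, edgeR adjusted p = 0.852). With 1 library left out it lay between 0.00354 (without cKO 1) and 0.235 (without cKO 2), and it was 0.046 without control 2 and 0.053 without cKO 5. Exons of Nrxn3 overlap those of Gm37980 on the opposite strand.

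Of the 6 members other than Cbln1, 0 were called in either direction by edgeR, and 0 by DESeq2 or limma-voom. An unadjusted edgeR p under 0.05 was found for 1 of them, Grid1, where 9.65% of all tested genes had one. Beyond Grid1, the 95% intervals of the log2 fold change reached no lower than -0.52 and no higher than 0.50.

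**Figure D3:**
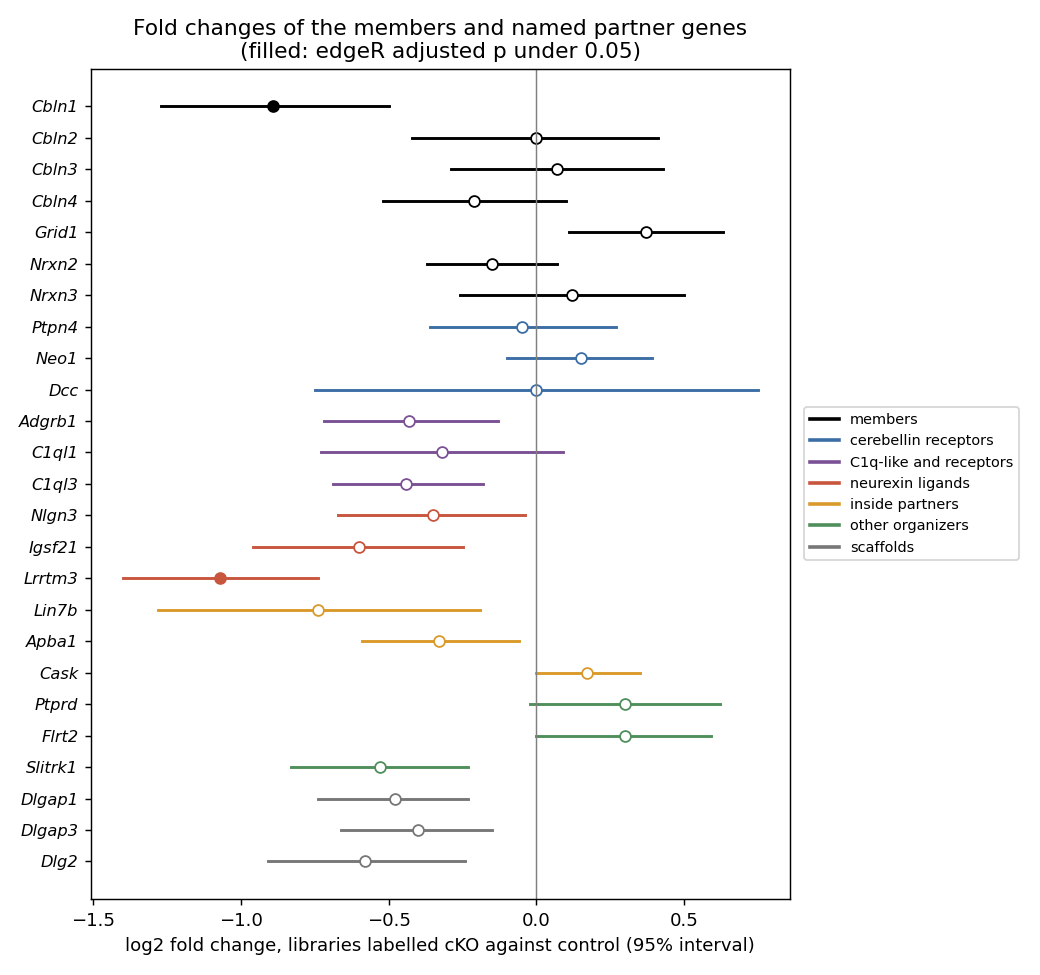
Points give the log2 fold change of the libraries labelled cKO against controls with its 95% interval for the 7 members (black) and the named genes of 6 partner lists, with filled points for an edgeR adjusted p under 0.05. Cbln1 at -0.89 and Lrrtm3 at -1.07 are the filled points, and Grid1 lies right of 0 at 0.37.

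Cbln1 is made by neurons in the brain, so its values were set beside marker genes of the cell types that the dissected tissue could hold. Of 18 neuron markers, all tested, 2 were called lower (Elavl4, an RNA-binding protein of neurons, and Slc17a7, a vesicular glutamate transporter) and 0 higher, with 14 below 0 and a median log2 fold change of -0.244. An unadjusted p under 0.05 was found for 9 of the 18, or for 6 without control 2 and 5 without cKO 5. Elavl4 went from 66.0 ± 5.87 to 39.6 ± 3.89 CPM and Slc17a7 from 22.5 ± 3.33 to 10.3 ± 1.86 CPM, with edgeR adjusted p of 0.00108 for each. DESeq2 called 3 of the 18 lower, adding Map2, and limma-voom (run throughout with library quality weights) and the edgeR fit without control 2 each called 4, adding Isl1 as well. The summed CPM of the 18 markers was 1785 to 1860 in controls and 1205 to 2008 in the libraries labelled cKO. The log2 ratio of Cbln1 to the geometric mean of these markers was -4.28, -3.87, -4.42, -4.67 and -4.49 in controls 1 to 5. It was -5.47, -5.32, -4.92, -4.61 and -4.69 in the libraries labelled cKO. Only cKO 4, which had the lowest neuron markers, reached above control 4, with which cKO 5 nearly coincided. The mean ratio in the libraries labelled cKO differed from that in controls by -0.654 on the log2 scale. Leaving out 1 library at a time, the difference lay between -0.751 and -0.535. As Cbln1 chose the set, the ratio has no test, and the part of the neuron markers in the Cbln1 difference was not tested.

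**Figure D4:**
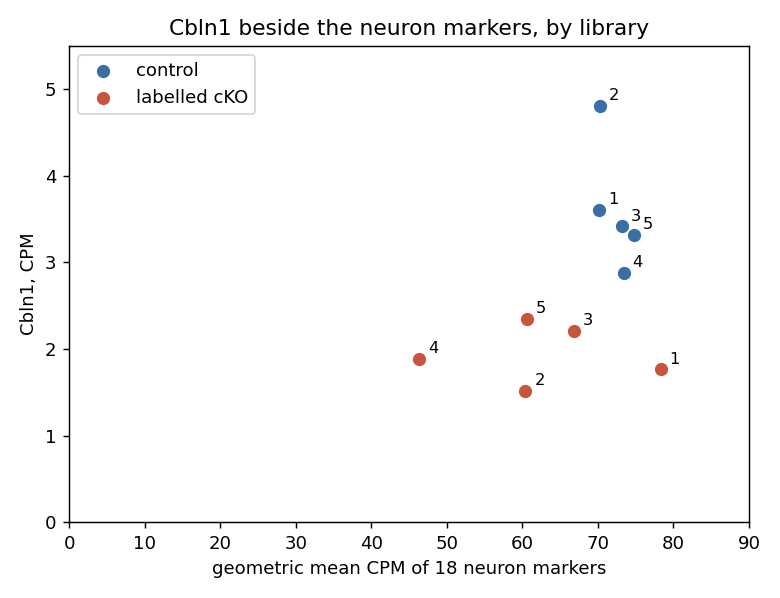
The CPM of Cbln1 (vertical) is plotted against the geometric mean CPM of 18 neuron markers (horizontal) for each library, with replicate numbers beside the points. Controls lie at 70.2 to 74.8 CPM of the markers and the libraries labelled cKO at 46.3 to 78.3 CPM, and cKO 1 combines the highest neuron markers with 1.77 CPM of Cbln1.

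Markers of other cells were read in the same way, and with all libraries edgeR calls fell only in the first list below. In the list of oligodendrocyte lineage cells and astrocytes, 3 of 8 genes were called lower, Olig1, Olig2 and Aqp4, with log2 fold changes of -2.75, -2.04 and -1.61, and 0 were called higher. An unadjusted p under 0.05 was found for 5 of the 8, and for 3 without control 2 or without cKO 5. The name of the list does not show which cells of the cochlea held these RNAs, Aqp4 among them, and this was not tested. Exons of Olig1 overlap those of Gm15966 on the opposite strand. The median log2 fold change of that list was -0.276, with 5 genes below 0 and 3 above. The summed CPM of the list was 431 to 605 in controls and 526 to 703 in the libraries labelled cKO, ranges that overlap. Of 13 markers of cerebellar and brainstem neurons, 6 were tested and 0 called by edgeR, with 2 at an unadjusted p under 0.05, 1 called by DESeq2 (Pax6, lower) and 0 by limma-voom. Their summed CPM was 337 to 385 in controls and 373 to 452 in the libraries labelled cKO. Gabra6, a defining gene of mature cerebellar granule cells, had 0 counts in every library, and En1, En2 and Pcp2 had under 10 counts in each. The summed CPM came almost wholly from the other genes of the list. At postnatal day 1, a gene of mature granule cells does not show whether immature ones were present. Whether the tissue held cerebellar or brainstem neurons was not tested. Among 9 genes of Schwann cells and satellite glia 0 were called by edgeR, 3 had an unadjusted p under 0.05, and DESeq2 and limma-voom each called 2 lower (Cnp and Fabp7). The median log2 fold change of that list was -0.371, with a summed CPM of 1293 to 1510 in controls and 931 to 1380 in the libraries labelled cKO. The 11 hair cell genes had a median of -0.085 (-0.043 without control 2, -0.137 without cKO 5), with 0 calls by edgeR, DESeq2 or limma-voom, 1 unadjusted edgeR p under 0.05, and sums of 317 to 403 and 318 to 399 CPM. The 10 supporting cell genes had a median of 0.025 (-0.030 without control 2, with 3 unadjusted p under 0.05, and 0.007 without cKO 5), 0 edgeR calls with 2 unadjusted p under 0.05, 0 calls by DESeq2, and sums of 2459 to 3218 and 3017 to 3286 CPM; limma-voom, and edgeR without control 2, called Prox1 lower. The 7 genes of periotic mesenchyme had a median of 0.118, with 0 calls by any of these tools, 0 unadjusted edgeR p under 0.05, and sums of 13048 to 15083 and 13817 to 16342 CPM. The part of these cells in the values of the members was not tested.

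Further genes of the trans-synaptic machinery were read from lists. Neo1, Dcc and Ptpn4 were 3 other genes listed as receptors or binding proteins of cerebellins or of their partners. Of these 3, 0 were called by edgeR, DESeq2 or limma-voom and 0 had an unadjusted edgeR p under 0.05. Neo1, the netrin receptor neogenin, went from 460 ± 81.1 to 509 ± 29.0 CPM (log2 difference 0.15, SE 0.116, edgeR adjusted p = 0.702). Dcc, another netrin receptor, spread from 1.18 to 9.45 CPM in controls and from 5.52 to 7.51 CPM in the libraries labelled cKO, and Ptpn4, a tyrosine phosphatase, had a log2 fold change of -0.05 (SE 0.147, edgeR adjusted p = 0.936).

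C1q-like proteins are relatives of the cerebellins that bind adhesion receptors of the Adgrb family. Of 7 listed genes 5 were tested and 0 called by edgeR, with 2 at an unadjusted p under 0.05 and a median of -0.321 that was -0.182 without control 2. C1ql3 lay at 9.26 to 11.2 CPM in controls and 5.97 to 8.52 CPM in the libraries labelled cKO, without overlap, and differed by -0.44 on the log2 scale (SE 0.118, edgeR adjusted p = 0.172). DESeq2 called C1ql3 lower, and limma-voom called C1ql3 and Adgrb1. The exons of C1ql3 are overlapped by 2 opposite-strand genes. Adgrb1 had a log2 fold change of -0.43 and C1ql1 one of -0.32, with edgeR adjusted p of 0.290 and 0.623, and an Adgrb1 exon overlaps Gm26117.

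Among 16 other extracellular ligands of neurexins, 15 were tested, 1 was called lower and 0 higher, and the median was -0.030 (-0.015 without control 2, -0.001 without cKO 5). The gene that fell was Lrrtm3, an LRRTM protein of the postsynaptic membrane (ENSMUSG00000042846; chromosome 10, 63928472 to 64090277, minus strand). Controls 1 to 5 held 8.47, 10.4, 9.19, 9.01 and 7.65 CPM. The libraries labelled cKO held 5.76, 4.09, 4.08, 3.14 and 4.29 CPM, all below the lowest control. On the log2 scale Lrrtm3 changed by -1.07 (SE 0.155; edgeR adjusted p = 0.00416), and its call held in all 10 fits with 1 library left out, with adjusted p of 0.00264 to 0.0190. Igsf21, a ligand known to bind Nrxn2, differed by -0.60 on the log2 scale (SE 0.166) and had an edgeR adjusted p of 0.179. Its genotypes did not overlap, at 5.38 to 7.48 and 2.76 to 4.77 CPM, and DESeq2 called it lower. Nlgn3, a neuroligin, had a log2 fold change of -0.35 and an edgeR adjusted p of 0.473, and its exons overlap those of Gm21986.

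Inside the presynaptic terminal, 0 of 6 neurexin partners were called by edgeR, DESeq2 or limma-voom, 3 had an unadjusted edgeR p under 0.05, and the median was -0.207. The log2 fold changes were -0.74 for Lin7b, -0.33 for Apba1 and 0.17 for Cask, the 3 genes of the Cask, Mint and Veli scaffold named here. Their edgeR adjusted p were 0.334, 0.405 and 0.513. The genotypes did not overlap for Cask, and Lin7b and Apba1 have exons that opposite-strand genes overlap.

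Of 25 other synaptic organizers 0 were called by edgeR, 2 had an unadjusted p under 0.05, and 19 lay above 0 with a median of 0.136, which was 0.024 without control 2. Slitrk1, a postsynaptic adhesion protein, lay apart from this with a log2 fold change of -0.53 (SE 0.139, edgeR adjusted p = 0.149) and was called lower by DESeq2 and limma-voom. The receptor phosphatase Ptprd and the adhesion protein Flrt2 each had a log2 fold change of 0.30, with edgeR adjusted p of 0.552 and 0.516. Of 15 postsynaptic scaffold genes 0 were called by edgeR, 4 had an unadjusted p under 0.05, and the median was 0.023. Its sign turned without control 2, to -0.013 with 7 unadjusted p under 0.05, and without cKO 5, to -0.015. Dlg2, Dlgap1 and Dlgap3, the proteins that tie receptors to the postsynaptic density, had log2 fold changes of -0.58, -0.48 and -0.40, with edgeR adjusted p of 0.165, 0.110 and 0.224. Without control 2, 3 scaffold genes were called lower, Dlg2, Dlgap1 and Shank1. DESeq2 called Dlg2 and Dlgap1, and limma-voom called these 2 and Dlgap3. Exons of Dlg2 and Dlgap1 overlap those of other genes.

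The members were also compared in how single libraries deviated from their genotype mean, as Pearson correlations of log2 CPM over 10 libraries, which share depth, RNA quality and cell make-up and are given without a test. Cbln1 deviated with Cbln2 (r = 0.62) and against Grid1 (r = -0.71). Over the 9 libraries other than control 2 the values were 0.52 for Cbln1 with Cbln2 and -0.37 for Cbln1 with Grid1. Over the same 9 libraries Cbln1 had higher values with Nrxn3 (0.64) and Cbln3 (0.55), which were 0.27 and 0.16 over all 10. Cbln2 deviated against Grid1 with either set of libraries, at -0.57 and -0.51. Nrxn2 and Nrxn3 deviated together with either set of libraries, at 0.59 and 0.56, as did Cbln2 and Cbln4, at 0.63 and 0.59. The receptor genes span 125439 (Nrxn2) to 1612060 (Nrxn3) bases of the genome, and the cerebellins 4205 (Cbln1) to 7234 (Cbln4) bases. Grid1, Nrxn2, Nrxn3 and also the short gene Cbln3 were lowest among the controls in control 2, where Cbln1 was highest. A part of gene span in these values was not tested.

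Among 15253 genes with a mean of at least 1 CPM, the 5 whose deviations were most like those of Cbln1 were Mapk12 (r = 0.973), Hps6 (0.955), Bfsp1 (0.945), Arap1 (0.936) and Cd38 (0.918). Without control 2 the same genes had r between 0.899 (Cd38) and 0.981 (Arap1). These 9 libraries are among the 10 by which the genes were picked, so the values are no separate support. The 5 genes are also the highest of 15253 values over only 10 libraries. Whether unrelated genes would reach such r was not tested. Between the genotypes, the log2 fold changes of these 5 genes lay between -0.12 (Cd38) and 0.11 (Arap1), with edgeR adjusted p of at least 0.653. Exons of Arap1 overlap those of Gm45837.

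A motif for estrogen-related receptors, TNAAGGTCA on either strand, was looked for in promoter windows of 300 bases from RefSeq (GRCm38.p6). Windows were found for 3 of the 7 members, namely Cbln3, Cbln4 and Nrxn3, the last with 3 windows. These letters were in 0 of the 5 windows, and in 421 of all 32851 windows, or 1.28%. The table held no window under the symbols Cbln1, Cbln2, Grid1 and Nrxn2.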

How the data were processed

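Polyadenylated RNA was read as paired 150 bp reads, per the labels' protocols. The authors deposited whole-number counts per Ensembl gene and FPKM values. The submitters' processing notes list STAR 2.5, HTSeq 0.61, DESeq2 and the build mm10 (GRCm38), without roles; annotation and use of strand are not given in the sources used here. FPKM implied gene lengths within 0.1% of merged exon length in GENCODE M21 for 95.3% of 13918 genes (minimum 50 counts per library), so symbols and coordinates come from that annotation (54409 of 54532 IDs matched). Counts were filtered with filterByExpr (minimum count 10), scaled by TMM and compared by edgeR 4.0.16 (quasi-likelihood F-test, robust, genotype as the only term), with Benjamini-Hochberg adjustment over 17937 genes. SE comes from the F statistic. Each library is 1 animal. Alternatives were DESeq2 1.42.0 (size factors or Wald test), limma-voom with library quality weights, limma 3.58.1 on log2(FPKM + 1) or log2(FPKM + 0.1), no filter, a replicate block and leaving out each library; deviations within genotype without control 2 were added after seeing the data. Named genes are the members, list genes that were called or among the 3 smallest p of their list, and the 5 genes most like Cbln1; marker genes and Shank1 were named after their values were seen. Some listed genes, and the planned neurexin shares that need them, are not reported here. Members and lists were chosen with earlier results of these data known.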

Additional observations from a re-analysis of the deposited data

Results flagged for a closer look

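Dixon's test was run on 13 measures of the members in each genotype, to find a single library far from the remaining 4. In 26 groups chance alone gives about 1.3 such libraries (5%), and 2 were found. Cbln4 was low in cKO 2, at 3.06 CPM where the other libraries labelled cKO held 3.78 to 4.02. The Cbln3 share of the cerebellin FPKM was low in cKO 4, at 14.3% where the others held 18.6 to 20.0%.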

How the results depend on the processing

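The log2 fold change of Cbln1 kept its sign in every alternative, and its call was lost with the replicate number as a block (-0.879, adjusted p = 0.0977) and with limma on log2(FPKM + 0.1) (-0.789, adjusted p = 0.0503), where 0 members were called lower. It was -0.735 with limma-voom, which here also weights libraries by quality, so that test and weighting change together, and -0.408 on log2(FPKM + 1), a scale that understates the change of low genes; both stayed called (adjusted p = 0.0224 and 0.0478). Same-numbered libraries deviated together with correlations of 0.021 to 0.179. Without the values of differently numbered pairs beside them, these do not show whether the numbers pair the animals. With 1 library left out, Cbln1 lay between -0.963 and -0.774, and 0 or 1 members were called lower; the call held without control 2 or control 4. Cbln2, at -0.000778, had no fixed sign: it was 0.000397 with DESeq2 size factors, 0.000166 with DESeq2, 0.00635 without a filter, 0.214 with limma-voom and quality weights, 0.014 with the block, 0.00499 and 0.017 on log2(FPKM + 1) and log2(FPKM + 0.1), and -0.108 to 0.096 with 1 library left out. With 1 library left out, Cbln3 lay between -0.00971 and 0.161. Grid1, Cbln4, Nrxn2 and Nrxn3 kept their sign in all alternatives run and were called in none; with 1 library left out, Nrxn2 lay between -0.228 and -0.07 and Nrxn3 between 0.00354 and 0.235. Genes called lower over all tested were 253 with DESeq2, 295 with limma-voom and quality weights and 44 to 178 with 1 library left out, and genes called higher 54, 53 and 8 to 19. Calls lower in the lists rose to 1 and 2 for C1q-like genes, 1 and 1 for other organizers and 2 and 3 for scaffolds with DESeq2 and limma-voom, and to 2 for neurexin ligands with DESeq2; with 1 library left out, scaffolds had 0 to 3. Depth limits Cbln1 to Cbln4, with 53 to 187 counts per library.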
